A study of Homo sapiens with 8 samples.

Results

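The 4 libraries compared here carried a short hairpin RNA against TAF7 (shTAF7): 2 came from MDA231-LM2 (LM2 below) and 2 from MDA-MB-231. They were chosen by their titles and are 4 of the 8 libraries of the series. The other 4, with a control hairpin and a wild-type genotype in the labels, came from the same lines in the same design, 2 from each, and served as the reference for what the lines differ in when TAF7 is not lowered. MDA-MB-231 is a triple-negative breast cancer cell line of mesenchymal appearance, and LM2 is a derivative of it selected for metastasis to the lung. Both were grown as cultures in the same serum-containing medium, and messenger RNA was enriched from total RNA before sequencing. One hairpin sequence, number 3 in the titles, was used in both lines, so what it does through TAF7 and what it does otherwise cannot be told apart. The stated aim of the series was to find genes that TAF7 regulates. The comparison addresses which differences between the 2 lines remained, shrank, vanished or turned when the hairpin was present in both.

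TAF7 belongs to TFIID, a general transcription factor built from the TATA-binding protein TBP and its associated factors (TAFs), which binds core promoters and helps to place RNA polymerase II at transcription start sites. TAF7 binds TAF1, the largest subunit, and restrains its acetyltransferase activity while the initiation complex is assembled. LM2 cells are known for raised levels of secreted and adhesion proteins, among them MMP1, VCAM1, PTGS2 and SPARC, many of which belong to inflammatory or matrix programs.

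Each library held between 17217776 and 20292291 reads counted in genes, so that 1 read corresponded to 0.0488 to 0.0583 CPM ( the usual depth-scaled read count, here with TMM scaling factors). The low-count filter left 15923 genes for testing. Libraries of a group correlated at 0.995 to 0.997 (log2 CPM, 9412 genes with a mean of at least 10 CPM). The LM2 control libraries had reads in 24490 and 24762 genes, against 22296 to 23434 in the other 6. Of the 8 markers fixed for the line, VIM, CD44, AXL, CAV1 and EGFR had at least 2850 counts in every library, ZEB1 had 838 to 2062 and SPARC 1074 to 2811. S100A4 was the lowest, with 27 to 150 and both lowest counts in LM2 shTAF7. Of 8 luminal markers CDH1 (E-cadherin) and ESR1 (oestrogen receptor) had at most 5 counts, whereas FOXA1 had 31 to 192, GATA3 80 to 170, EPCAM 93 to 194 and KRT19 576 to 1607. Of 20 markers of leukocytes, fibroblasts and endothelium 13 had fewer than 10 counts in each library, whereas LAPTM5 had 1532 to 2888. KRT8 and KRT18, keratins of luminal cells that MDA-MB-231 is known to express, made up most of the luminal marker sum of 821 to 976 CPM in the 4 shTAF7 libraries. A line difference below is the log2 fold change of LM2 minus MDA-MB-231 (n = 2 libraries per group). The value after ± is an approximate standard error, the unshrunken log2 fold change divided by the square root of the test's F statistic. It can be too small where a group has few counts. For MMP1 it was 0.14 and 0.16 for the line differences with shTAF7 and control hairpins, and 0.53 for their change. A gene was called at an adjusted p under 0.05 (edgeR's quasi-likelihood test, Benjamini-Hochberg adjustment over all tested genes). Whether the libraries of a group came from different cultures is not in the labels. The p-values therefore reflect the spread among these libraries, which may be technical.

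TAF7 mRNA was below its controls in both lines with the hairpin, but not at the same level. MDA-MB-231 had 179 and 185 CPM in its control libraries and 108 and 105 CPM with shTAF7. LM2 had 195 and 197 CPM in its control libraries and 142 and 148 CPM with shTAF7. The group means were 58.5% and 74.2% of the controls, and the shTAF7 libraries of LM2 lay above those of MDA-MB-231 without overlap. The line difference of TAF7 was 0.11 ± 0.07 with control hairpins, which was not called (edgeR adjusted p = 0.152), and 0.45 ± 0.07 with shTAF7 (edgeR adjusted p = 1.51e-07). The change between these, 0.34 ± 0.09, was called (edgeR adjusted p = 0.00544) but not with library totals (0.0538) or without MDA-MB-231 control replicate 3 (0.0513). Each comparison with shTAF7 is thus between lines whose TAF7 mRNA differed by 1.36-fold, and the part of this gap in any result was not tested.

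Most line differences remained. With shTAF7, 4924 genes were higher in LM2 (30.9% of those tested) and 5028 were lower (31.6%). At least 2-fold, 1577 were higher (9.9%) and 1617 lower (10.2%). With control hairpins, which share no library with the former comparison, 5134 were higher (32.2%) and 5115 lower (32.1%), or 2190 (13.8%) and 1314 (8.25%) at least 2-fold. The same direction was called in both comparisons for 7372 genes, which were 74.1% of the genes called with shTAF7 and 71.9% of those called with control hairpins. Across genes the line differences of the 2 comparisons correlated at r = 0.871, and at 0.902 over 9412 genes with a mean of at least 10 CPM, where genes are not independent replicates. In bulk RNA, fewer cells that express a gene and less RNA per cell cannot be told apart. Where a pair of line differences is given below with "against", the first is with shTAF7 and the second with control hairpins.

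The change in the line difference, shTAF7 minus control, was tested as an interaction in 1 fit of all 8 libraries. It was called for 4113 genes, positive for 2221 (13.9%) and negative for 1892 (11.9%). Of the 7372 genes called in both comparisons, 5686 showed no called change, 980 had a smaller difference with shTAF7 and 706 a larger one. A further 1070 differences were lost, meaning that they were called with control hairpins and not with shTAF7 and that the change was called towards 0. Another 913 were gained and 417 turned, called in opposite directions. The count of turned genes was 277 without either MDA-MB-231 control library in turn and 258 with DESeq2. For 1390 genes called only with control hairpins and 1250 called only with shTAF7 the change itself was not called, so these are not shown to differ. Between the hairpins LM2 moved further than MDA-MB-231 in 68.4% of the lost, 73.4% of the gained and 76.7% of the turned genes. This share was 55.0% of those called in both with no called change, 59.6% of the smaller and 73.7% of the larger differences. Among genes with no call in any of the tests it was 57.6%. The classes were defined from the same values, so these shares are a description only.

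**Figure D1:**
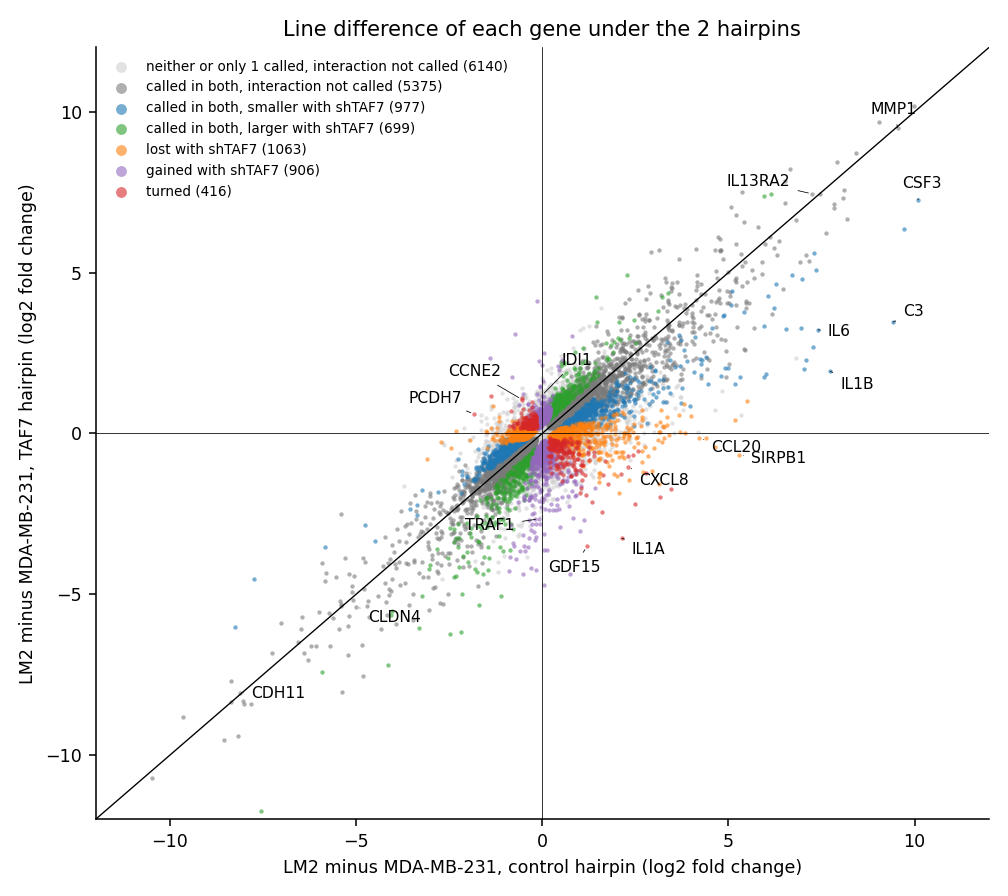
Each point is 1 gene, with its line difference under control hairpins on the horizontal axis and under the TAF7 hairpin on the vertical axis (both log2 fold changes); the 15576 genes with reads in every group are shown, coloured by class, and the diagonal marks equal differences. Most points lie along the diagonal, while IL1B, IL6, C3 and CSF3 lie below it on the right and GDF15, IL1A and CXCL8 lie in the quadrant of turned genes.

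Some genes were read in 1 line only. A rule set after seeing the data took genes with at least 5 CPM under both hairpins in 1 line and at most 3 counts in each library of the other. It gave 44 genes read in LM2 alone, 37 of them protein-coding, and 33 read in MDA-MB-231 alone, 23 of them protein-coding. None of these 77 had a called change with the TAF7 hairpin by edgeR's or DESeq2's interaction test, 5 had an unadjusted p under 0.05 by edgeR, and 17 were called by limma on log2(FPKM + 1).

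Among the 10 genes with the largest increase in LM2 shTAF7, SERPINB9, an inhibitor of granzyme B, had no read in either MDA-MB-231 shTAF7 library and 33.9 and 33.1 CPM in LM2 shTAF7. It was at least 209-fold higher, computed against a floor of 3 counts per library. PPP2R2C, a regulatory subunit of protein phosphatase 2A, was at least 135-fold higher, and GALNT14, an enzyme that starts O-linked glycosylation, at least 115-fold. TMEM98, NLRP2, FBLN5 (an elastic fibre protein), IGSF9B and the protocadherin FAT3 were at least 65.8-fold higher each. APBB1IP, an adaptor that links Rap1 to integrins, had 1 count in MDA-MB-231 shTAF7, and its ratio was 3291 (95% counting interval 590.2 to 130009).

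Of the 10 genes with the largest decrease, MAGEA3, a cancer-testis antigen, had 152 and 152 CPM in MDA-MB-231 shTAF7 and no read in LM2. It was at least 933-fold lower, although its reads can be shared with near-identical MAGEA genes, and so its level is uncertain. MAGEC1, of the same class, was at least 453-fold lower and COX7B2, a testis form of a cytochrome c oxidase subunit, at least 401-fold. CSAG1, BCHE (butyrylcholinesterase), CCBE1, PAEP and LINC02864 were at least 116-fold lower each. VAMP8, a vesicle fusion protein, had 1 count in LM2 shTAF7 against 116 and 117 CPM in MDA-MB-231 shTAF7, and its ratio was 4308 (95% counting interval 773 to 170195). GENCODE 29, the source of chromosomes here, lacks MAGEA6-DT, which is among the 33 genes read in MDA-MB-231 alone. It places 8 of the 33 on the X chromosome: MAGEA3, MAGEA6, MAGEA12, MAGEC1, CSAG1, SPANXD, FOXR2 and GABRA3. In a set filtered otherwise, 298 of 9185 protein-coding genes with a mean of at least 10 CPM lie on this chromosome. The 8 are not all independent, as MAGEA genes can share reads. Of 10 tested cancer-testis genes 6 were lower and 3 higher in LM2 shTAF7, as were 6 and 4 with control hairpins, and the median with shTAF7 was -3.47 (or -1.16 with genes at 0 in a group set to their bound).

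Line differences also followed chromosomes in the same way under both hairpins. Over 9185 protein-coding genes with a mean of at least 10 CPM, the median line difference of chromosome 3 was 0.48 with shTAF7 and 0.47 with control hairpins, with 410 of 549 genes called higher in LM2 shTAF7. Chromosome 10 had 0.39 and 0.37. Chromosome 9 had the lowest medians, -0.47 and -0.59, with 284 of 379 genes called lower in LM2 shTAF7. Chromosomes 18 (-0.37 and -0.39), 2 (-0.34 and -0.41) and X (-0.30 and -0.37) were also low. The largest gap between the comparisons was at chromosome 22, with -0.23 and -0.54, where 109 of 201 genes were called lower with shTAF7 and 149 with control hairpins. Across the 23 chromosomes the 2 medians correlated at r = 0.961, as a description of genes that share the same libraries within a comparison.

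**Figure D2:**
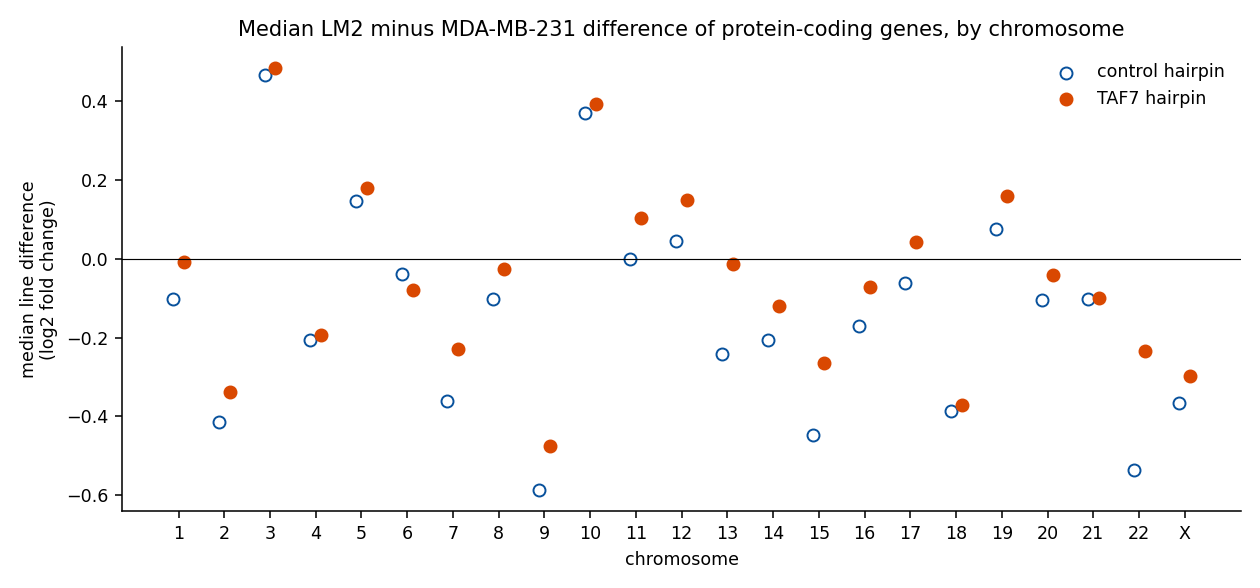
Median line difference (LM2 minus MDA-MB-231, log2 fold change, vertical axis) of protein-coding genes on each chromosome, with open circles for control hairpins and filled circles for the TAF7 hairpin. Chromosomes 3 and 10 are high and chromosome 9 is low under both, and chromosome 22 differs most between them.

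Several genes for which LM2 is known kept their difference. MMP1, a collagenase of the lung metastasis gene set, had 0.933 and 0.488 CPM in MDA-MB-231 shTAF7 and 496 and 519 CPM in LM2 shTAF7. The libraries of the lines did not overlap, and the line difference was 9.51 ± 0.14 with shTAF7 and 9.54 ± 0.16 with control hairpins (edgeR adjusted p = 5.56e-44 with shTAF7). IL13RA2, a decoy receptor for interleukin-13, had 7.44 ± 0.17 and 7.25 ± 0.17 in the same order. CXCR4, a chemokine receptor, had no read in MDA-MB-231 and 1.40 and 1.16 CPM in LM2 shTAF7, at least 7.96-fold higher. SPARC, a matrix protein, had 63.2 and 59.1 CPM in MDA-MB-231 shTAF7 and 123 and 127 CPM in LM2 shTAF7, and its difference was smaller than with control hairpins (1.03 ± 0.07 against 1.37 ± 0.07).

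Other genes of that set had smaller, undetected or opposite differences. VCAM1, an adhesion molecule for leukocyte integrins, had 9.30 and 7.97 CPM in the LM2 controls and 1.0 and 1.0 CPM in LM2 shTAF7, with 3 counts in all in MDA-MB-231 shTAF7, a ratio of 12.6 (95% counting interval 3.99 to 63.9). PTGS2 (cyclooxygenase-2) went from a line difference of 4.29 ± 0.09 to 2.27 ± 0.09. CXCL1, a neutrophil chemokine, went from 3.23 ± 0.10 to 0.23 ± 0.12, which was not called (edgeR adjusted p = 0.0838). The inhibitors of differentiation ID1 and ID3 turned from -0.28 ± 0.07 to 0.24 ± 0.07 and from -0.63 ± 0.08 to 0.42 ± 0.08. Of the 20 tested genes of the set, 9 were higher and 7 lower in LM2 shTAF7, against 9 and 8 with control hairpins, and the change was called positive for 2 and negative for 9 (5 of 20 without MDA-MB-231 shTAF7 replicate 2). The set was drawn from derivatives such as LM2, so its direction is not independent evidence.

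Genes of the extracellular matrix were called in similar numbers under both hairpins, and the change was called for many of them, mostly negative. Of 29 matrix proteases and inhibitors 19 were higher and 7 lower in LM2 shTAF7, against 21 and 4 with control hairpins (2 lower without MDA-MB-231 control replicate 3), while the median went from 1.23 to 0.50. The change was called negative for 14 and positive for 3 (1 with library totals, without LM2 shTAF7 replicate 2 or without MDA-MB-231 control replicate 2), against 11.9% and 13.9% of all tested genes. ADAMTSL1, a secreted ADAMTS-like protein, had a larger difference with shTAF7 (7.37 ± 0.21 against 5.97 ± 0.18). SERPINB2, an inhibitor of urokinase, had a smaller one (5.62 ± 0.16 against 7.29 ± 0.16), as did ADAMTS12 (4.81 ± 0.21 against 6.97 ± 0.23). MMP14, the membrane-bound activator of MMP2, was 1.55 ± 0.07 against 1.97 ± 0.07. Of 31 collagens and other matrix genes 17 were higher and 11 lower, against 18 and 8 with control hairpins, and the change was called negative for 16 and positive for 4. Among them were COL8A1 at 4.45 ± 0.09 against 4.12 ± 0.09, COL4A5 at 6.34 ± 0.27 and the laminin chain LAMA4 at -4.44 ± 0.19 against -2.31 ± 0.16.

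ITGB4, the integrin of hemidesmosomes, had 234 and 218 CPM in MDA-MB-231 shTAF7 and 19.4 and 17.7 CPM in LM2 shTAF7, and its difference of -3.60 ± 0.08 was larger than with control hairpins (-2.82 ± 0.08). Of 14 integrins 8 were higher and 4 lower. Of 23 cadherins and protocadherins 5 were higher and 12 lower, against 2 and 15 with control hairpins, with CDH3 (P-cadherin) at -5.37 ± 0.48 and PCDHB2 at -5.01 ± 0.52. CDH11, a mesenchymal cadherin, had 9.62 and 8.49 CPM in MDA-MB-231 shTAF7 and 1 count in LM2 shTAF7, a ratio of 332 (95% counting interval 59.2 to 13145). Of 23 epithelial genes 4 were higher and 11 lower in LM2 shTAF7, against 6 and 11 with control hairpins. The change was called positive for 7 (3 with library totals) and negative for 5 (1 with DESeq2). Lower members included the tight junction protein CLDN4 at -5.39 ± 0.19 and the splicing regulator ESRP2 at -3.71 ± 0.34. The summed level of the list was nevertheless 2132 CPM in MDA-MB-231 shTAF7 and 2519 CPM in LM2 shTAF7. Of 16 mesenchymal genes 9 were higher and 7 lower, with the transcription factors ZEB1 at 1.17 ± 0.08 and ZEB2 at -1.45 ± 0.10.

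The genes of MHC class II presentation remained higher in LM2. CD74, the invariant chain, had 61.6 and 77.8 CPM in LM2 shTAF7 and 2 counts in MDA-MB-231 shTAF7, a ratio of 1316 (95% counting interval 364 to 10871). CIITA, the transactivator of these genes, had 0.233 and 0.341 CPM in MDA-MB-231 shTAF7 and 5.81 and 6.12 CPM in LM2 shTAF7, with a difference of 4.32 ± 0.34 against 4.37 ± 0.31 with control hairpins. The cathepsin CTSS had a smaller difference (4.63 ± 0.26 against 6.27 ± 0.26). Of 6 tested genes of the list 5 were higher with shTAF7 and 6 with control hairpins, and the median with shTAF7 was 4.48 (3.45 with the gene at 0 in a group set to its bound). The other 6 genes of the list were not tested. Of 8 leukocyte markers 6 had at most 5 counts in any library, with TYROBP at 0 in each. CD14 had 14 and 8 in the LM2 controls and 2 to 7 in the other libraries, and LAPTM5 had 1532 to 2888. The summed level of the list was 82.2 and 85.8 CPM in LM2 shTAF7, 164 and 143 in MDA-MB-231 shTAF7, 89.1 and 95.2 in the LM2 controls and 145 and 149 in the MDA-MB-231 controls. The part of leukocytes in the MHC class II result was not tested.

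Cytokines and targets of NF-kB, the transcription factor that activates inflammatory genes on signals such as interleukin-1 and tumour necrosis factor, lost most of their excess in LM2. Of 29 tested genes 23 were higher and 5 lower in LM2 with control hairpins, and 13 were higher and 12 lower with shTAF7, where 30.9% and 31.6% of all tested genes were called. The median line difference went from 2.44 to 0.23, against 0.02 and 0.00 for all tested genes. The change was called negative for 26 of the 29 and positive for 0 (edgeR, with 0 also at an unadjusted p under 0.05 and by DESeq2 and limma). Of the 5 lower with control hairpins, 2 were still called without LM2 control replicate 2 and 3 with limma on FPKM.

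Promoter sequences are shown for CCL20, IL6 and CXCL8, because the members' line differences moved together and these 3 had the largest changes among members whose promoter holds TATAAA or kB letters. They are the 250 bases before the RefSeq start site (GRCh38.p14), 5′ to 3′ on the plus strand. CCL20 lies at chr2:227813592-227813841, IL6 at chr7:22726950-22727199 and CXCL8 at chr4:73740319-73740568. Capitals mark TATAAA starting 40 to 20 bases before the start on the sense strand and, on either strand, the kB letters, which are 3 G, any 2 letters, 2 T, any letter and 2 C in this order.
CCL20: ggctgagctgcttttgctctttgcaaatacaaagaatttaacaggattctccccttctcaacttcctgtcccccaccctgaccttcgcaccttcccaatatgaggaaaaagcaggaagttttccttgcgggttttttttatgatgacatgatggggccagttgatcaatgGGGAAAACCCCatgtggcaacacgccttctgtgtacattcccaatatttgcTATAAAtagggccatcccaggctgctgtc
IL6: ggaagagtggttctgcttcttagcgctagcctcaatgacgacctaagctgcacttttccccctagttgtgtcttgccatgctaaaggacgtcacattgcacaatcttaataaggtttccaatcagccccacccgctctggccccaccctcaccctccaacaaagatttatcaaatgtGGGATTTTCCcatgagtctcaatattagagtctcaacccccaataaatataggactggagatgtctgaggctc
CXCL8: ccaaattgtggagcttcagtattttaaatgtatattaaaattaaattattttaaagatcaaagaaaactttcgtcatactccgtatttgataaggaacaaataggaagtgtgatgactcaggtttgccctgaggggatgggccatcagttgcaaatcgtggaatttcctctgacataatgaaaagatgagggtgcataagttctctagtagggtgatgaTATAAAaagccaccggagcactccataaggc
In CCL20 the TATAAA lay 29 bases before the start and a pair of overlapping kB matches began 80 bases before it. In IL6 a single kB match began 73 bases before the start, and in CXCL8 the TATAAA lay 31 bases before it with no kB match in these letters. The pattern asks for 3 G, and the CXCL8 stretch tggaatttcc, which departs from it only in its first letter, was not marked. A lack of a match therefore does not show that a promoter has no kB site. Of 23 promoters of tested list members 10 held the kB letters (43.5%) and 5 the TATAAA (21.7%), against 6.53% and 1.74% of the 10421 promoters of tested protein-coding genes, which matched 80.9% of those genes by symbol with 1 start each. The promoters counted span 300 bases, the 250 printed and the 50 after the start. The list holds known NF-kB targets, so a high share of kB letters follows from how it was chosen. Of 396 promoters of genes with a called change of at most -1, list members included, 9.60% held the kB letters and 7.83% the TATAAA. Of 53 with a called change of at least 1, 5.66% held each. A match describes letters and not binding.

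Among the cytokines, IL1B, which encodes interleukin-1 beta, had 4.99 and 4.98 CPM in the MDA-MB-231 controls and 1088 and 1040.1 CPM in the LM2 controls. With shTAF7 it had 36.9 and 36.7 CPM in MDA-MB-231 and 139 and 141 CPM in LM2. All LM2 libraries lay above all MDA-MB-231 libraries, but the line difference was smaller, 1.93 ± 0.08 against 7.74 ± 0.10 (edgeR adjusted p of the change = 5.25e-36), and with the hairpin the level was higher than its controls in MDA-MB-231 and lower than its controls in LM2, with no overlap. IL6 had 0.933 and 1.22 CPM in MDA-MB-231 shTAF7 and 10.2 and 10.1 CPM in LM2 shTAF7, with a difference of 3.22 ± 0.19 against 7.41 ± 0.17. CSF3, the granulocyte growth factor, kept a wide gap, 0.641 and 0.780 CPM against 108 and 115 CPM, a difference of 7.27 ± 0.14 against 10.09 ± 0.15. C3, the central complement component, had 0.350 and 0.585 CPM against 5.41 and 5.23 CPM, a difference of 3.46 ± 0.27 against 9.43 ± 0.19.

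Several members no longer differed detectably or turned. CCL20, a chemokine for CCR6-bearing cells, had 0.936 and 0.615 CPM in the MDA-MB-231 controls and 15.1 and 14.2 CPM in the LM2 controls. With shTAF7 it had 1.63 and 1.80 CPM in MDA-MB-231 and 1.12 and 1.95 CPM in LM2, and these libraries overlapped. Its difference of -0.16 ± 0.30 was not called (edgeR adjusted p = 0.664), and it was 0.18 without LM2 shTAF7 replicate 2. IL1A, which encodes interleukin-1 alpha, turned from 2.14 ± 0.24 to -3.26 ± 0.33, with 5.02 and 4.0 CPM in MDA-MB-231 shTAF7 and 0.391 and 0.528 CPM in LM2 shTAF7. CXCL8 (interleukin-8) turned from 2.29 ± 0.07 to -1.05 ± 0.07, with 163 and 165 CPM against 79.5 and 78.5 CPM and no overlap. The adhesion molecule ICAM1 (2.44 ± 0.11 to -0.66 ± 0.11) and the growth factor CSF2 (1.62 ± 0.11 to -1.29 ± 0.14) turned as well. Among the pathway's own regulators, TNFAIP3 (A20), an inhibitor, went from 2.46 ± 0.10 to 0.55 ± 0.11. NFKB2, a precursor subunit, went from 1.30 ± 0.07 to -0.03 ± 0.07, which was not called (edgeR adjusted p = 0.763). NFKBIA, the inhibitor IkB-alpha, was lower in LM2 under both, at -0.28 ± 0.08 with control hairpins and -0.90 ± 0.09 with shTAF7. TRAF1, a signalling adaptor, gained a difference, from -0.08 ± 0.15 to -2.66 ± 0.19. IL11 stood apart, at -2.43 ± 0.08 and -2.30 ± 0.08, with no called change.

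**Figure D3:**
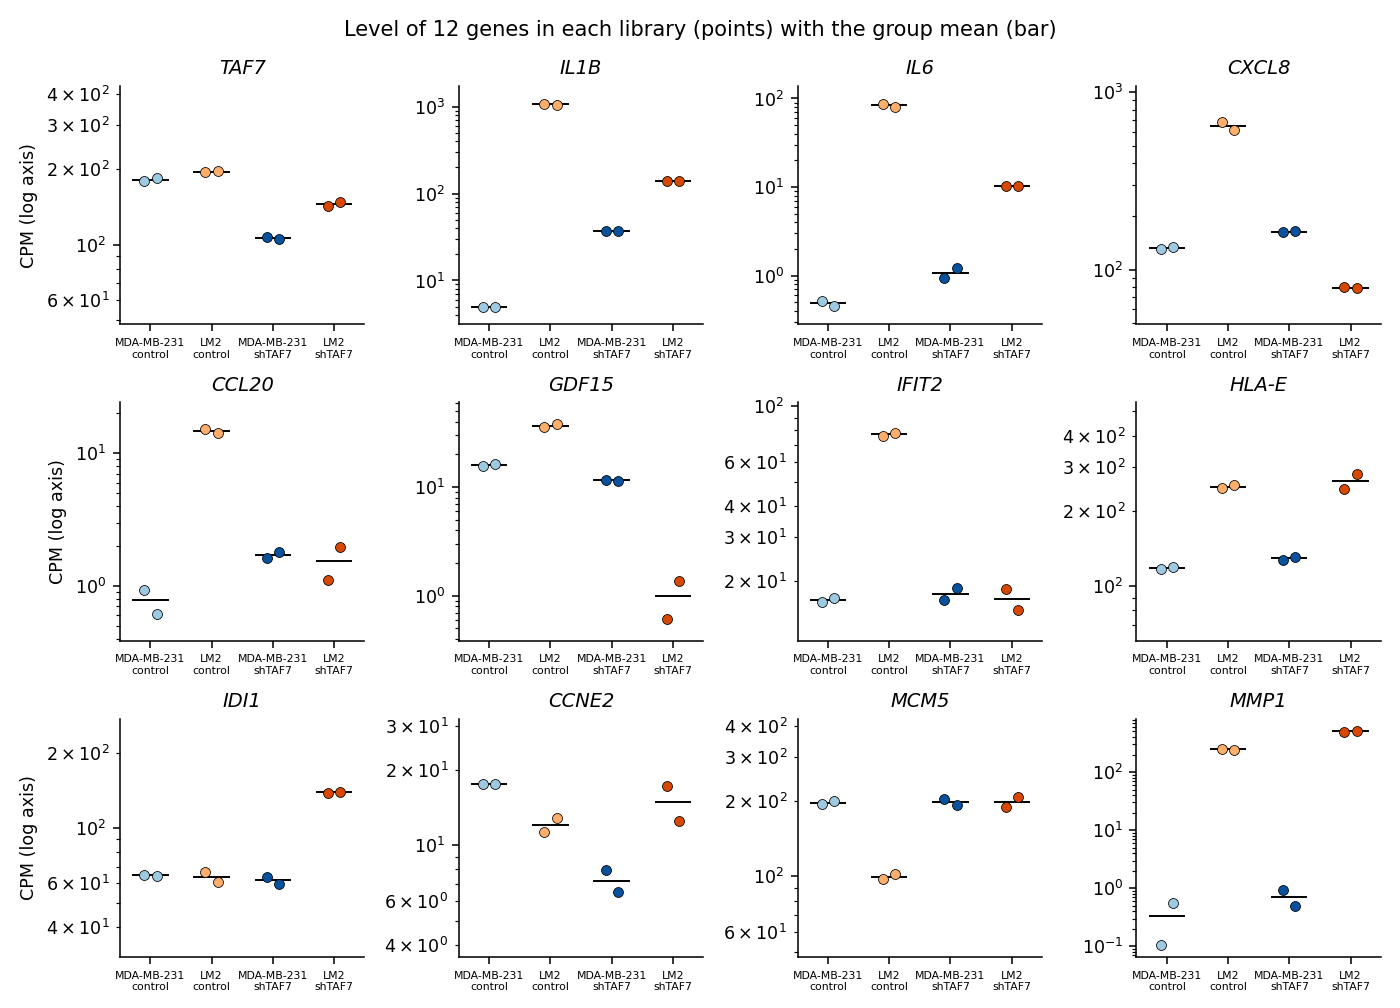
Level of 12 genes in each library (CPM on log axes, 2 points per group) with the group mean as a bar, for MDA-MB-231 and LM2 with control hairpins and with shTAF7. The gap between the lines narrows for IL1B and IL6, closes for CCL20 and IFIT2, turns for CXCL8 and GDF15, opens for IDI1, and stays for MMP1 and HLA-E.

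Interferon-stimulated genes showed the same kind of shift. Of 37 tested genes 23 were higher and 6 lower in LM2 with control hairpins, and 9 were higher and 15 lower with shTAF7. The median went from 0.76 to -0.19, and the change was called negative for 25 and positive for 0 (edgeR, with 0 also at an unadjusted p under 0.05 and by DESeq2 and limma). IFIT2, an RNA-binding antiviral protein, had 76.3 and 78.3 CPM in the LM2 controls against 16.5 and 17.1 CPM in the MDA-MB-231 controls. With shTAF7 it had 18.6 and 15.3 CPM in LM2 and 16.9 and 18.7 CPM in MDA-MB-231, which overlapped. IFIT1 went from 1.5 ± 0.10 to 0.02 ± 0.10, which was not called (edgeR adjusted p = 0.886), and IFIH1, a sensor of double-stranded RNA, turned from 1.25 ± 0.14 to -0.84 ± 0.15. OAS1 and EPSTI1 were lower in LM2 under both and more so with shTAF7 (-3.34 ± 0.27 against -1.73 ± 0.25, and -2.10 ± 0.29 against -0.91 ± 0.23). BST2 (tetherin) stayed high, with 2.10 and 1.56 CPM in MDA-MB-231 shTAF7 and 27.2 and 30.8 CPM in LM2 shTAF7 (4.0 ± 0.17 against 5.08 ± 0.20).

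Of 17 MHC class I presentation genes 13 were higher and 3 lower with control hairpins, and 7 were higher and 5 lower with shTAF7 (8 lower with library totals or limma on FPKM). The change was called negative for 12 of them (7 without replicate 2 of the MDA-MB-231 controls or of MDA-MB-231 shTAF7) and positive for 1. HLA-E had 128 and 131 CPM in MDA-MB-231 shTAF7 and 244 and 281 CPM in LM2 shTAF7, a difference of 1.02 ± 0.07 with no called change. HLA-C gained a difference (-0.91 ± 0.08 against 0.13 ± 0.08), and reads of HLA genes can be shared among them. TAP1, the peptide transporter, was -1.29 ± 0.12 against -0.43 ± 0.11, and PSMB9, a subunit of the immunoproteasome, went from 1.56 ± 0.17 to -0.30 ± 0.16, which was not called (edgeR adjusted p = 0.0982).

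Targets of ATF4, the transcription factor of the amino acid response, lost most of their excess in LM2. Of 32 tested genes 25 were higher and 2 lower with control hairpins, and 14 were higher and 12 lower with shTAF7, while the change was called negative for 24 and positive for 3 (1 with library totals or limma on FPKM and without replicate 2 of the MDA-MB-231 controls or replicate 3 of MDA-MB-231 shTAF7). The median with control hairpins was 0.54. With shTAF7 it was 0.01, and below 0 with library totals (-0.07), limma on FPKM (-0.06) and without MDA-MB-231 shTAF7 replicate 3 (-0.03). GDF15, a stress-induced cytokine, had 15.8 and 16.3 CPM in the MDA-MB-231 controls and 35.8 and 37.7 CPM in the LM2 controls. With shTAF7 it had 11.7 and 11.3 CPM in MDA-MB-231 and 0.614 and 1.37 CPM in LM2, a turn from 1.2 ± 0.11 to -3.51 ± 0.21 (edgeR adjusted p of the change = 4.06e-21). CTH, an enzyme of cysteine synthesis, went from 2.81 ± 0.10 to 0.31 ± 0.12, and DDIT4, an inhibitor of mTORC1, turned from 0.82 ± 0.07 to -0.57 ± 0.07. TRIB3 went from 1.23 ± 0.08 to 0.02 ± 0.09, which was not called (edgeR adjusted p = 0.839). ATF4 mRNA itself went the other way, from -0.13 ± 0.07 to 0.28 ± 0.07. SLC7A11, the cystine transporter, and PHGDH, which starts serine synthesis, stayed higher in LM2 (1.33 ± 0.07 and 0.99 ± 0.07).

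**Figure D4:**
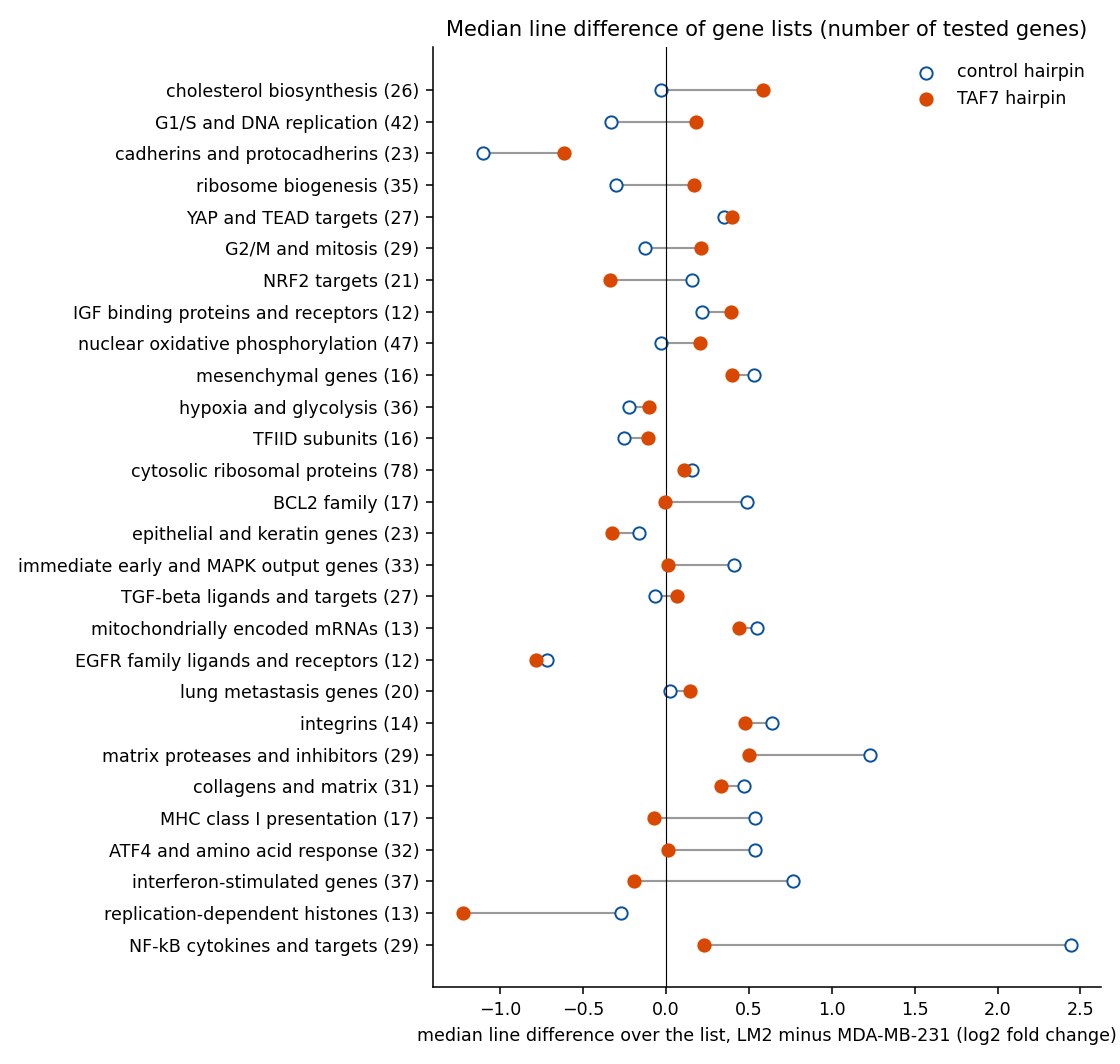
Median line difference of each gene list (log2 fold change, horizontal axis) with control hairpins (open circles) and the TAF7 hairpin (filled circles), ordered by the median of the members' changes, with the number of tested genes in brackets. NF-kB targets move from 2.44 to 0.23, and cholesterol and G1/S genes move upwards.

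Most genes of cholesterol biosynthesis were higher in LM2 with shTAF7. Of 26 tested genes 7 were higher and 9 lower in LM2 with control hairpins, and 19 were higher and 1 lower with shTAF7 (3 lower with library totals and without MDA-MB-231 shTAF7 replicate 3). By class 9 gained a difference, 4 turned, 4 were lost and 7 were called in both. The change was called positive for 19 and negative for 2, and the median went from -0.03 to 0.59 (0.45 to 0.59 with RLE, library totals, DESeq2 and limma). IDI1, an isomerase of the mevalonate pathway, had 64.8 and 64.3 CPM in the MDA-MB-231 controls and 66.5 and 60.7 CPM in the LM2 controls, which overlapped. With shTAF7 it had 63.7 and 59.9 CPM in MDA-MB-231 and 138 and 139 CPM in LM2, a difference of 1.17 ± 0.07 (edgeR adjusted p = 2.79e-19). HMGCS1, a synthase at the start of the pathway, turned from -0.37 ± 0.08 to 0.74 ± 0.08. SQLE, the first oxygenating enzyme of the sterol branch, went from -0.03 ± 0.10 to 0.94 ± 0.10. INSIG1 and MVD were higher in LM2 under both and more so with shTAF7 (1.87 ± 0.08 against 1.25 ± 0.08, and 1.56 ± 0.08 against 1.13 ± 0.09). SREBF2, the transcription factor of the pathway, went from -0.71 ± 0.08 to -0.16 ± 0.08, which was not called (edgeR adjusted p = 0.0611). The exceptions were TM7SF2, a sterol reductase (-1.38 ± 0.14 against -0.52 ± 0.14), and SREBF1 (0.03 ± 0.09 against 0.58 ± 0.09).

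DNA replication genes moved in the same direction. Of 42 G1/S and DNA replication genes 8 were higher and 27 lower in LM2 with control hairpins (5 higher without LM2 control replicate 2 or with DESeq2), and 21 were higher and 8 lower with shTAF7. The change was called positive for 33 and negative for 0 (edgeR, with 0 also at an unadjusted p under 0.05 and by DESeq2 and limma), and the median went from -0.33 to 0.18. MCM5, part of the helicase that unwinds DNA for replication, had 194 and 199 CPM in the MDA-MB-231 controls and 97.6 and 102 CPM in the LM2 controls. With shTAF7 it had 203 and 193 CPM in MDA-MB-231 and 189 and 208 CPM in LM2, which overlapped, and its difference of 0.00 ± 0.07 was not called (edgeR adjusted p = 0.979). MCM7 stayed lower in LM2 but less so (-0.51 ± 0.07 against -1.14 ± 0.07), and MCM4 went from -0.77 ± 0.07 to 0.07 ± 0.07, which was not called (edgeR adjusted p = 0.357). CCNE2, which encodes cyclin E2, turned, with 7.93 and 6.49 CPM in MDA-MB-231 shTAF7 and 17.2 and 12.5 CPM in LM2 shTAF7 (1.05 ± 0.15 against -0.54 ± 0.13). UNG, a uracil glycosylase, turned as well (0.80 ± 0.07 against -0.29 ± 0.07). The licensing factor CDT1 was higher in LM2 under both (1.13 ± 0.08 with shTAF7).

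Of 29 G2/M and mitosis genes 16 were higher and 5 lower in LM2 shTAF7, against 8 and 14 with control hairpins. The 5 were 3 with DESeq2 and without MDA-MB-231 shTAF7 replicate 2, and the 8 were 4 without either MDA-MB-231 control library in turn and 5 without LM2 control replicate 2. CCNA2 (cyclin A2) gained a difference of 0.70 ± 0.07, and the proliferation marker MKI67 went from -0.12 ± 0.08 to 0.55 ± 0.08. KIF23, a kinesin of the midbody, stayed lower in LM2 (-0.60 ± 0.07 against -0.93 ± 0.07). Of 35 ribosome biogenesis genes 18 were higher and 12 lower in LM2 shTAF7, against 7 and 20 with control hairpins, and the change was called positive for 22 (13 with limma on FPKM) and negative for 0 (edgeR, with 0 also at an unadjusted p under 0.05 and by DESeq2 and limma). NPM1 (nucleophosmin) was 1.06 ± 0.08 against 0.67 ± 0.08, and UTP20, a processing factor of the small subunit, turned from -0.43 ± 0.07 to 0.50 ± 0.07. MYC, which acts on both programs, was higher in LM2 under both, with 64.8 and 60.9 CPM in MDA-MB-231 shTAF7 and 192 and 198 CPM in LM2 shTAF7 (1.63 ± 0.07 against 2.01 ± 0.07).

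**Figure D5:**
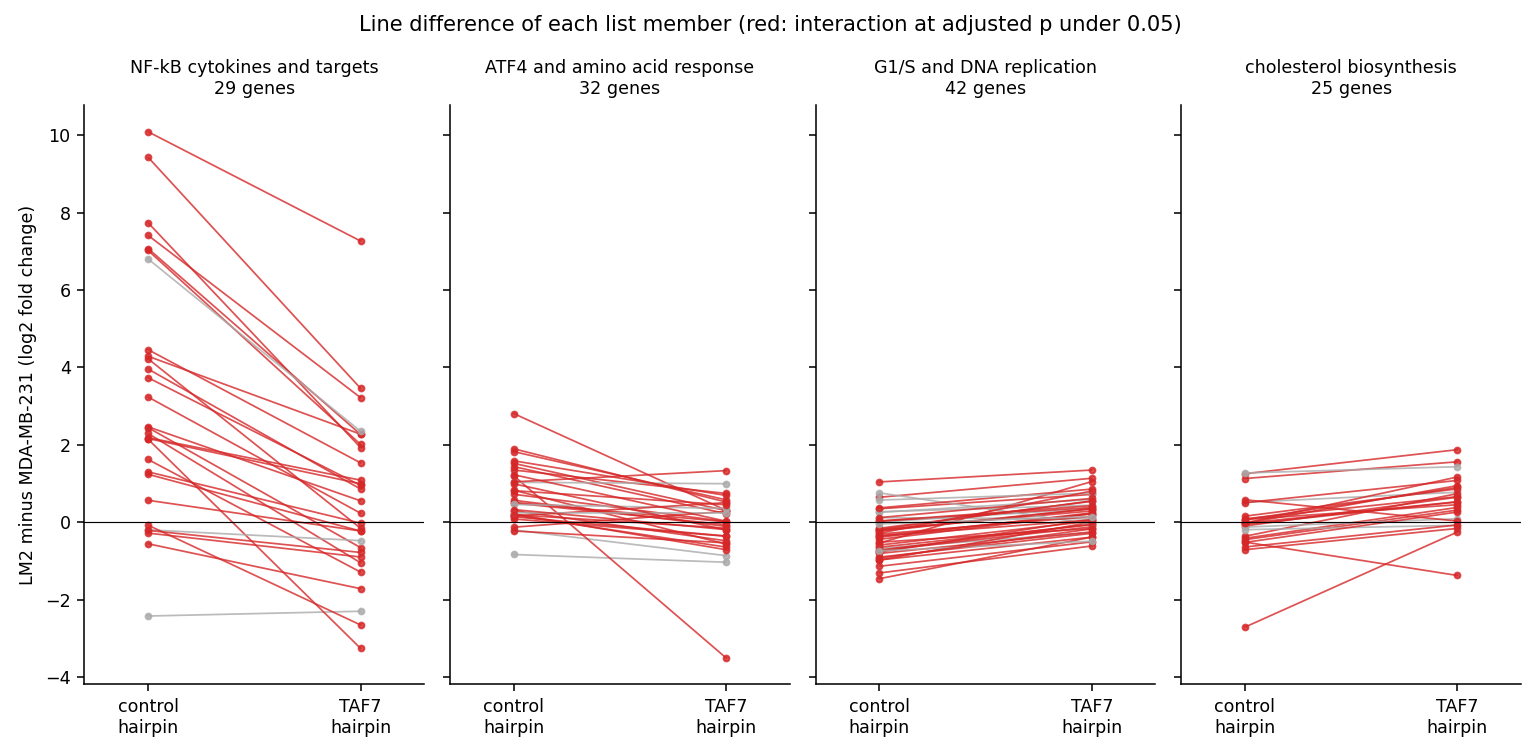
Line difference (log2 fold change, vertical axis) of every member of 4 lists under the control hairpin and the TAF7 hairpin, joined by a line that is red where the change was called; 25 of the 26 cholesterol genes are shown, those with reads in every group. Lines of the NF-kB and ATF4 lists mostly fall, and those of the G1/S and cholesterol lists mostly rise.

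Replication-dependent histones differed in the opposite way. Of 13 tested genes 0 were higher and 8 lower in LM2 shTAF7 (edgeR, with 0 higher also at an unadjusted p under 0.05 and by DESeq2 and limma), against 0 and 3 with control hairpins (1 higher by limma and at an unadjusted p under 0.05). Their median was -1.22 against -0.27. H1-2, a linker histone, had 144 and 152 CPM in MDA-MB-231 shTAF7 and 19.7 and 22.6 CPM in LM2 shTAF7 (-2.80 ± 0.09 against -1.52 ± 0.09). H2BC12 was -2.59 ± 0.09 against -1.36 ± 0.09. Their transcripts mostly lack poly(A) tails, reads of histone genes can be shared between near-identical copies, and how evenly mRNA enrichment kept them was not tested.

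Targets of YAP and TEAD, the output of Hippo signalling, were mostly higher in LM2 under both hairpins. Of 27 genes 19 were higher and 2 lower with shTAF7 (4 lower with library totals or limma on FPKM), against 15 and 6 with control hairpins. The change was called positive for 16 (10 with library totals and without MDA-MB-231 control replicate 3, and 8 with limma on FPKM) and negative for 2. ANKRD1 had 202 and 208 CPM in MDA-MB-231 shTAF7 and 809 and 880.2 CPM in LM2 shTAF7 (2.04 ± 0.07 against 1.02 ± 0.07). CCN2, a secreted matrix regulator, turned from -0.39 ± 0.07 to 0.28 ± 0.07, and WWC1 (KIBRA) was 3.80 ± 0.10 against 3.10 ± 0.09. IGFBP3, an IGF binding protein, had 34.6 and 32.2 CPM against 212 and 232 CPM in the same order (2.74 ± 0.08 against 1.84 ± 0.08). GADD45A went the other way (1.05 ± 0.08 against 2.72 ± 0.08).

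Several ligands of the EGF receptor were lower in LM2, and more so with shTAF7. AREG (amphiregulin) had 33.9 and 29.9 CPM in MDA-MB-231 shTAF7 and 3.80 and 4.28 CPM in LM2 shTAF7 (-2.98 ± 0.14 against -0.78 ± 0.12), EREG was -1.81 ± 0.08 against -0.99 ± 0.07, and TGFA was -1.58 ± 0.08 against -1.22 ± 0.08. Of 12 ligands and receptors of the family 3 were higher and 7 lower. In the TGF-beta list 10 of 27 genes were higher and 12 lower, against 8 and 11 with control hairpins. There the target TAGLN stayed high in LM2 (3.32 ± 0.17), the inhibitor SMAD6 stayed low (-2.35 ± 0.17) and LTBP3, which binds latent TGF-beta, was lower than with control hairpins (-2.77 ± 0.08 against -1.26 ± 0.07). VEGFA, the angiogenic factor, turned from 1.40 ± 0.07 to -0.57 ± 0.07, whereas the changes of PGK1 (-1.06 ± 0.08 against -1.07 ± 0.08) and EGLN3 (-1.51 ± 0.13 against -1.59 ± 0.14) were not called. ADM (adrenomedullin) had a smaller difference with shTAF7 (1.19 ± 0.07 against 1.81 ± 0.08, edgeR adjusted p of the change = 1.31e-05) and the aldolase ALDOC a larger one (-1.22 ± 0.08 against -0.87 ± 0.09, edgeR adjusted p = 0.027). Of 36 hypoxia and glycolysis genes 6 were higher and 14 lower, against 8 and 22. There 14 were called in both with no called change and 5 were lost, and the change was called positive for 5 and negative for 5 (2 to 10 positive and 4 to 10 negative across alternatives).

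Calls among housekeeping genes depended on the settings. Of 78 cytosolic ribosomal protein genes 34 were higher and 13 lower in LM2 shTAF7, against 36 (23 without MDA-MB-231 control replicate 2) and 19 with control hairpins, and the change was called for 2 (0 to 12 across alternatives). Some of their reads may stem from processed pseudogenes of near-identical sequence. Of 47 nuclear genes for oxidative phosphorylation 23 were higher and 12 lower with shTAF7. These were 15 higher with library totals and without LM2 shTAF7 replicate 3, 13 with limma on FPKM, and 6 lower without LM2 shTAF7 replicate 2. Of 13 mitochondrially encoded mRNAs 12 were higher in LM2 shTAF7 (7 without MDA-MB-231 shTAF7 replicate 2, without LM2 shTAF7 replicate 2 or with DESeq2, and 4 with limma on FPKM) and 13 with control hairpins (7 with limma). MT-ND1 was 0.95 ± 0.11 against 1.11 ± 0.11. Fewer long noncoding RNAs were higher in LM2 with shTAF7 than with control hairpins: of 1561 lincRNA and antisense genes (strand use in counting is not stated) 262 were at least 2-fold higher and 214 lower with shTAF7, against 417 and 142 with control hairpins, and their median went from 0.50 to 0.15. The counts of protein-coding genes shifted the same way, from 1515 to 1103 higher and from 1022 to 1232 lower, as did those of all tested genes, from 13.8% to 9.9% higher and from 8.25% to 10.2% lower, and no test compared the gene types. Beside this stands the larger number of genes with reads in the LM2 control libraries, and its part in the result was not tested.

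Beyond these lists, the largest changes in each class fell on varied genes. C1QTNF1, a secreted C1q-related protein, had no read in the MDA-MB-231 controls, 10.8 and 12.7 CPM in the LM2 controls and 2.62 and 2.53 CPM in LM2 shTAF7, where its difference was 3.96 ± 0.47. STXBP6, a binder of syntaxins, stayed lower in LM2, with 31.8 and 29.4 CPM in MDA-MB-231 shTAF7 and 0.391 and 0.528 CPM in LM2 shTAF7 (-6.03 ± 0.20). GPR63 had a smaller difference (-0.80 ± 0.16 against -2.25 ± 0.19), and AMOT and LMX1B stayed lower in LM2 (-4.53 ± 0.40 and -3.54 ± 0.36). The change was not called for AMOT, LMX1B and STXBP6 without LM2 shTAF7 replicate 3 (edgeR adjusted p = 0.122, 0.0760 and 0.0760) nor under 2 to 7 other alternatives each. Larger differences with shTAF7 included those of the peptide hormone APLN (2.21 ± 0.17 against 0.50 ± 0.19), KBTBD11 (3.47 ± 0.26 against 1.46 ± 0.25) and REEP1 (2.23 ± 0.19 against 0.58 ± 0.20). ZBED9 had no read in LM2 shTAF7 and was at least 36.0-fold lower. The mucin MUC5B had 7.87 and 5.32 CPM in MDA-MB-231 shTAF7 and 0 and 0.370 CPM in LM2 shTAF7 (-5.06 ± 0.51 against -1.12 ± 0.41). MUC5AC had 2 counts in LM2 shTAF7, a ratio of 164 (95% counting interval 45.2 to 1363). Reads of the 2 mucins can be shared, and MUC5B had 4 and 38 counts in the LM2 control libraries. The change of MUC5B (-3.94) was not called with DESeq2 (DESeq2 adjusted p = 0.170) or without LM2 control replicate 3, where it was -1.55. The change of MUC5AC (-3.05) was not called with limma on FPKM (limma adjusted p = 0.485). Nor was it called without LM2 control replicate 2 (-2.65) or without LM2 shTAF7 replicate 2 (-2.15).

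Lost differences included the receptor SIRPB1, with 9.85 and 9.70 CPM in the LM2 controls and 0.208 and 0.280 CPM in the MDA-MB-231 controls, but 1.06 and 1.32 CPM in LM2 and 1.69 and 2.10 CPM in MDA-MB-231 with shTAF7. Its difference of -0.67 ± 0.31 was not called (edgeR adjusted p = 0.0531) but was with library totals and without either MDA-MB-231 control library or MDA-MB-231 shTAF7 replicate 2. The complement protease C1S went from 3.66 ± 0.31 to 0.56 ± 0.39 (edgeR adjusted p = 0.204), and INHBE, a subunit of activin E, from 2.67 ± 0.36 to -0.88 ± 0.69 (edgeR adjusted p = 0.259, and 0.71 on the log2 scale without MDA-MB-231 shTAF7 replicate 2, where the change was no longer called). Without MDA-MB-231 shTAF7 replicate 3 it was -1.72 and called (edgeR adjusted p = 0.024), so that the class of INHBE rests on these libraries. Of genes lower in LM2 with control hairpins, PDE3B, a phosphodiesterase, had 16.9 and 14.8 CPM in MDA-MB-231 shTAF7 and 16.9 and 14.9 CPM in LM2 shTAF7, which overlapped, and its difference went from -1.26 ± 0.13 to 0.01 ± 0.12. TMEM108, TM9SF1 and LINC00641 went to 0.03 ± 0.16, -0.04 ± 0.21 and -0.07 ± 0.14, none of them called. Gained differences included the nuclear receptor NR4A1, with 2.97 and 2.83 CPM in MDA-MB-231 shTAF7 and 13.4 and 11.2 CPM in LM2 shTAF7 (2.08 ± 0.18 against 0.41 ± 0.22). The Hedgehog effector GLI2 (1.62 ± 0.20) and FAM222A (2.11 ± 0.25) gained in the same direction. The NADPH oxidase NOX5 (-3.54 ± 0.29), the endothelial adhesion molecule PECAM1 (-2.65 ± 0.25) and the prostaglandin receptor PTGFR (-2.48 ± 0.22) gained in the other. Turned differences included the protocadherin PCDH7 (0.59 ± 0.14 against -1.82 ± 0.17), the semaphorin receptor PLXNA2 (0.69 ± 0.08 against -0.84 ± 0.08) and TOX (1.11 ± 0.16 against -0.56 ± 0.17). IGFN1 (-1.24 ± 0.21 against 2.80 ± 0.15) and SH2D2A (-1.28 ± 0.28 against 2.10 ± 0.29) turned the other way.

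Of the TFIID subunits 7 were called in both comparisons with no called change. Of 16 tested subunits, TAF7 included, 3 were higher and 6 lower in LM2 shTAF7, against 4 (2 without LM2 control replicate 2 or with DESeq2) and 8 with control hairpins, and the change was called for 3, TAF6, TAF7 and TAF9B, all positive. With library totals it was called positive for 1 and negative for 2, and without LM2 shTAF7 replicate 3 positive for 6 and negative for 1. TAF9 was higher in LM2 under both (0.78 ± 0.07 against 0.94 ± 0.08), with 72.3 and 74.2 CPM in MDA-MB-231 shTAF7 and 122 and 130.0 CPM in LM2 shTAF7, and TAF8 was 0.40 ± 0.08 against 0.39 ± 0.08. TBP itself was lower (-0.71 ± 0.10 against -0.68 ± 0.10), as were TAF1 (-0.83 ± 0.10 against -0.87 ± 0.10), TAF2 (-0.51 ± 0.08 against -0.76 ± 0.08), TAF5 (-0.45 ± 0.10 against -0.79 ± 0.10) and TAF13 (-0.58 ± 0.07 against -0.62 ± 0.07). TAF6 was lower by less with shTAF7 (-0.49 ± 0.08 against -0.85 ± 0.08).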

How the data were processed

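RNA of 8 libraries, 2 from each of MDA-MB-231 and LM2 with a control or TAF7 hairpin, was compared. The deposited read counts per gene (61552 identifiers, 1 column per library) and FPKM values per gene were made by the authors. STAR 2.7.10a and the build hg19 are named in the submitters' processing notes with no role. How reads were counted, on which strand and with which annotation was not given in the sources used here. Symbols came with the deposited identifiers, and gene types and chromosomes came from GENCODE 29, which held 94.8% of the identifiers. Totals of 17217776 to 20292291 counts set the precision, and intervals and floors cover counting error only.

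Counts were fitted with edgeR 4.0.16 in R 4.3.3 (filterByExpr, TMM, quasi-likelihood F test, 4 residual degrees of freedom, groups from the sample titles, all 8 libraries), with contrasts for LM2 minus MDA-MB-231 under each hairpin and their difference. Alternatives were RLE size factors, library totals, no filter, only the 4 libraries compared, a replicate block, each library left out, DESeq2 1.42.0, and limma 3.58.1 on log2(FPKM + 1). In simulated counts for 15383 genes, 50 genes above a minimum count were changed at each fold for each test, and all other genes had no group difference. The line difference with shTAF7 was recovered in 46%, 66%, 94% and 90% of genes changed 1.25, 1.5, 2 and 4-fold, and the change in 18%, 58%, 66% and 96%. Of the unchanged genes 13 and 14 were called. Among the real counts 62.5% and 25.8% of tested genes were called for these 2 contrasts. The simulated shares are therefore not the power of the tests reported above.

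Named genes were the TAF7 and called TFIID genes, the 10 highest and 10 lowest line differences with shTAF7 (called in all leave-one-out fits, at least 5 CPM, groups not overlapping), up to 4 per class and sign, and up to 4 per list with at least 1 CPM, besides defining members of a list. ID1, ID3, CXCL1, GADD45A, TM7SF2 and other further list members, and the rule for genes read in 1 line, were chosen after their values were seen. Members and lists were chosen with earlier results of these data known. Some genes that these rules pick are not reported here.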

Additional observations from a re-analysis of the deposited data

Results flagged for a closer look

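The line difference itself was tested for a change between the hairpins, and 4113 genes passed that test. The genes below were ranked by its size within their class, and the value given is the change, the line difference with shTAF7 minus that with control hairpins on the log2 scale. Lost differences had changes of -5.97 ± 0.49 for SIRPB1, -4.38 ± 0.41 for CCL20, -3.55 ± 0.78 for INHBE and -3.10 ± 0.53 for C1S. Those of TMEM108 (1.51 ± 0.25), PDE3B (1.27 ± 0.17), TM9SF1 (1.17 ± 0.29) and LINC00641 (1.03 ± 0.19) had the opposite sign. Gained differences had changes of 2.11 ± 0.35 for FAM222A, 1.67 ± 0.29 for NR4A1, 1.59 ± 0.29 for GLI2 and 1.19 ± 0.10 for IDI1, and of -3.16 ± 0.42 for NOX5, -2.58 ± 0.25 for TRAF1, -2.46 ± 0.35 for PECAM1 and -2.26 ± 0.30 for PTGFR. Turned differences had changes of -5.40 ± 0.41 for IL1A, -4.71 ± 0.24 for GDF15, -4.04 ± 0.26 for IGFN1 and -3.38 ± 0.40 for SH2D2A, and of 2.42 ± 0.22 for PCDH7, 1.67 ± 0.23 for TOX, 1.59 ± 0.20 for CCNE2 and 1.53 ± 0.11 for PLXNA2. All passed edgeR's interaction test at an adjusted p under 0.05. The change of INHBE was not called without MDA-MB-231 shTAF7 replicate 2, that of TM9SF1 without MDA-MB-231 control replicate 3 or with limma on FPKM, and that of LINC00641 with limma on FPKM.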

How the results depend on the processing

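Of the values of single genes under the alternatives, 3145 kept their direction and side of the threshold, 37 kept their direction and were no longer called, 5 became called and 15 changed sign. Of the counts under the alternatives, 127 lay within 1.5 times the reported count and 12 did not. With a line difference of at least 1 on the log2 scale required, 1577 genes were higher and 1617 lower in LM2 shTAF7, and 2190 higher and 1314 lower in LM2 controls. With both line differences held to this size, 2139 genes were called in both and 21 turned. With only the control-hairpin difference held to it 228 were lost, and with only the shTAF7 difference 186 were gained. The change was called and itself at least 1 in size for 813. The turned count was 258 with DESeq2 and 277 to 432 when each library was left out in turn. Some line differences with shTAF7 that were not called changed sign: CCL20 was -0.61 to 0.18 and INHBE -1.72 to 0.71 when each library was left out, the -1.72 being called (edgeR adjusted p = 0.024). TMEM108 was -0.052 with library totals, -0.023 with limma on FPKM and -0.034 to 0.083 with each library left out in turn. PDE3B was -0.076 with library totals, -0.047 with limma and -0.095 to 0.11 with each library left out. TM9SF1 was -0.14 to 0.029 and LINC00641 -0.32 to 0.23 with each library left out. The cause was not tested. Replicate numbers are shared by the groups, but deviations of same-numbered libraries correlated at only -0.17 to 0.08, so the numbers are not shown to pair the libraries. With the replicate number as a replicate block, 4903 genes were higher and 4998 lower in LM2 shTAF7, 5108 higher and 5095 lower in LM2 controls, 4128 changed, 7345 were called in both, 1078 lost, 924 gained and 405 turned. With library totals the median line difference of all genes with shTAF7 was -0.08. Depth limits what can be read of genes near 1 CPM.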

Other observations

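Regulators of apoptosis showed a mixed picture between the lines. Of 17 tested genes of the BCL2 family 6 were higher and 2 lower in LM2 with shTAF7 (5 lower with library totals or limma on FPKM), against 9 and 4 with control hairpins. BCL2A1, a survival gene known as an NF-kB target, had 5.36 and 5.37 CPM in MDA-MB-231 shTAF7 and 21.7 and 21.5 CPM in LM2 shTAF7, and its line difference was 2.01 ± 0.13 against 7.02 ± 0.23 with control hairpins. BCL2 itself went from -0.82 ± 0.13 with control hairpins to -0.01 ± 0.13 with shTAF7, which was not called (edgeR adjusted p = 0.964). The pro-apoptotic genes BBC3 (PUMA) and BMF went from 1.26 ± 0.15 and 2.20 ± 0.34 to -0.30 ± 0.15 and 0.60 ± 0.40, neither of them called with shTAF7 (edgeR adjusted p = 0.0722 and 0.187). BCL2L1 (BCL-XL) and BAX were higher in LM2 under both hairpins, at 0.66 ± 0.07 and 0.55 ± 0.07 with shTAF7.

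Immediate early genes were split. FOS and DUSP1, a phosphatase of MAP kinases, were higher in LM2 shTAF7, with FOS at 20.2 and 20.4 CPM in MDA-MB-231 and 70.3 and 71.1 CPM in LM2 and line differences of 1.80 ± 0.09 and 1.85 ± 0.07. JUNB and KLF4 turned, from 0.44 ± 0.08 and 0.55 ± 0.08 with control hairpins to -0.55 ± 0.08 and -0.61 ± 0.09. Of 33 genes of that list 14 were higher and 10 lower, against 19 and 8 with control hairpins. Of 21 tested NRF2 targets 8 were higher and 10 lower with shTAF7, against 9 and 9 with control hairpins. The change was called positive for 9 (4 with limma on FPKM) and negative for 5, while the median line difference went from 0.15 to -0.34. The members named next all had positive changes. NQO1, the quinone reductase, was lower in LM2 by less with shTAF7 (-0.42 ± 0.07 against -1.0 ± 0.07), as was GCLM, a subunit of the enzyme that starts glutathione synthesis (-0.64 ± 0.07 against -0.99 ± 0.07). TXNRD1, a thioredoxin reductase, was higher by more (0.83 ± 0.07 against 0.22 ± 0.07). Among insulin-like growth factor genes, IGF2 (2.90 ± 0.70 against 2.96 ± 0.45) and IGFBP7 (1.22 ± 0.08 against 1.03 ± 0.08) kept their difference, with IGF2 at 0.175 and 0.0488 CPM in MDA-MB-231 shTAF7 and 0.726 and 0.950 CPM in LM2 shTAF7.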
